A study of Mus musculus with 8 samples.

Results

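Myoblasts become multinucleated muscle fibres by recognising each other, adhering and merging their membranes, and 10 genes of that process were followed here in C2C12 cells, a line of mouse myoblasts that can fuse into myotubes in culture. The genes were picked by symbol from the deposited table of 35976 genes: Tmem8c (the older symbol of Mymk, myomaker), the cadherins Cdh15 and Cdh2, the junction adhesion molecules Jam2 and Jam3, the tetraspanins Cd9 and Cd81, the immunoglobulin receptor gene Kirrel, and the cytoplasmic regulators Bin3 and Arhgap26. All 10 were in the table, and all 10 passed the filter for testing in each group on its own, a mean above 3 on the log2 scale.

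In 4 libraries the C2C12 cells had received an shRNA against ATAD2, a chromatin ATPase with a bromodomain, and in the other 4 a non-targeting shRNA. Both groups were labelled as myoblasts and harvested 48 h after transfection, and total RNA was sequenced. The labels do not give the medium (growth or differentiation), how many shRNA sequences were used or whether libraries of one group are separate cultures, so each p-value refers to the spread among libraries, which may be technical. In bulk RNA, fewer cells of a kind and less RNA per cell cannot be told apart. Levels are log2(normalised count + 1), and fold changes are Atad2 shRNA over control shRNA on that scale ± SE, which understates changes of weakly expressed genes. A gene was called where limma's adjusted p, taken over all genes tested, was under 0.05.

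Depth was 50317442 to 72280135 reads per Atad2 library and 61359197 to 73008500 per control library. The target itself lay at 11.77 to 12.05 in the Atad2 libraries and at 14.61 to 14.74 in the control libraries (Atad2, log2 fold change -2.73 ± 0.05). Markers of myoblasts summed to 870 to 954 RPM (reads scaled to the library total) in the Atad2 libraries and 798 to 847 in the controls, with all 7 of 7 above the filter and Des, the desmin gene, the largest part of the sum. Of these 7, 3 were called higher (Des, Myod1 and Itga7) and 4 lower, namely Pax7 (-3.27 ± 0.70, with 0 to 12 reads per Atad2 library and 19 to 41 per control library, above the filter through the controls alone), Myf5 (-1.28 ± 0.10), Chrna1 (-0.25 ± 0.04) and Vcam1 (-0.19 ± 0.06). Of 4 fibroblast markers, Lum and Thy1 were at 0 in all libraries and the sum, nearly all of it Pdgfra, was 74.1 to 78.3 RPM in Atad2 libraries and 32.3 to 33.6 in controls. Leukocyte markers summed to 7.64 to 9.83 against 3.52 to 4.29 RPM, carried by Cd68, while Adgre1 and Cd3e were at 0 and Ptprc had at most 4 reads in any library. Epithelial markers reached 0.221 and 1.30 RPM at most in Atad2 and control libraries, with Epcam at 0, and endothelial markers 0.650 and 0.666. The part of these differences in the results below was not tested. Across all 14703 genes tested, 60.4% were called, 30.8% higher and 29.6% lower in the Atad2 libraries, so a call on a single gene is common in this comparison.

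As background, myomaker is a membrane-spanning protein of differentiating myoblasts that is needed on fusing cells, and it works with the small peptide myomerger, which completes the opening of the pore. Before that step cadherins hold myoblasts together through calcium-dependent contacts, and immunoglobulin proteins such as the JAMs and the Kirrel family provide recognition between cells. CD9 and CD81 are tetraspanins that organise membrane patches and restrain fusion of mouse muscle cells. BIN3 and the product of Arhgap26 (GRAF1) carry membrane-bending BAR domains and act on the actin cytoskeleton beneath the contact.

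Upstream sequence was taken from RefSeq (GRCm38.p6) for Cdh15, Cd9 and Cd81, which were not picked by their levels. Tmem8c, Jam2, Jam3 and Bin3 had no entry there, and Cdh2, Arhgap26 and Kirrel were left out. Each line gives the 250 bases before the annotated start, 5′ to 3′ on the gene's strand, with capitals on matches to the E-box CANNTG, the core that MyoD family factors and other basic helix-loop-helix proteins can bind. The stretches lie at chr8:122848124-122848373 (plus strand) for Cdh15, chr6:125494761-125495010 (minus strand) for Cd9 and chr7:143052500-143052749 (plus strand) for Cd81.
Cdh15: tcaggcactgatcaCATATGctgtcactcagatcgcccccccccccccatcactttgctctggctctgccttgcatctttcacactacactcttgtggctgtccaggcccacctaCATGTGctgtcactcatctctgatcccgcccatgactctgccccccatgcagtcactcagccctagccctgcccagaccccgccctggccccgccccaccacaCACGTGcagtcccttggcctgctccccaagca
Cd9: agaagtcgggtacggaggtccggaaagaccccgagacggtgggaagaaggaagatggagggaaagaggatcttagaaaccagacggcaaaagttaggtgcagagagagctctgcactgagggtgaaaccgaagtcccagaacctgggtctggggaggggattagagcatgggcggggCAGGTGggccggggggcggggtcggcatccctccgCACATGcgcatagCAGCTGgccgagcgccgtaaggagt
Cd81: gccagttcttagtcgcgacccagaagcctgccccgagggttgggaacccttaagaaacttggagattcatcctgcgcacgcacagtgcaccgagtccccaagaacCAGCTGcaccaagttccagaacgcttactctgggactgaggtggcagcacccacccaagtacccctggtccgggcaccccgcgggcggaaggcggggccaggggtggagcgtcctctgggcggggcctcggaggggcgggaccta
Cdh15 held 3 such matches, whose first bases lay 236, 135 and 32 bases before the start, Cd9 held 3 (73, 38 and 25 bases before) and Cd81 held 1 (145 bases before). CANNTG reads alike on both strands, and 66.2% of 32851 promoter stretches of the same length contained it. The narrower CAGCTG, which CANNTG includes, was present in Cd9 and Cd81 and in 13% of all stretches, and CACCTG (or CAGGTG on the other strand) in Cd9 and in 17.2% of all. CATTCC, the MCAT element, had no match on either strand in the 3 stretches and was found in 12.6% of all, and the MEF2 motif had none and was found in 2.92%. GGGCGG, on either strand, matched 3 times in Cdh15, 2 times in Cd9 and 3 times in Cd81, against 32.7% of stretches with any match. CCAAT, on either strand, matched none of the 3 and 33.8% of all stretches. The Cdh15 stretch held 5 CG dinucleotides and those of Cd9 and Cd81 16 each, where the median over all stretches was 6. A match or its absence describes these letters alone.

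Of the 10 genes, 5 were called higher in the Atad2 libraries (Tmem8c, Jam3, Cdh2, Cd9 and Kirrel), 4 lower (Cdh15, Bin3, Jam2 and Cd81) and 1, Arhgap26, was not called. With quantile normalisation or with cyclic loess in place of the deposited scaling, 2 were called higher (Tmem8c and Jam3) and 4 lower. A share of 9 in 10 called is to be read against the 60.4% of all genes called. The groups did not overlap for 7 of the 10, 4 higher and 3 lower, where 53.5% of all tested genes did not overlap (27.7% higher, 25.8% lower). The median log2 fold change of the 10 was 0.02, beside -0.01 over all genes tested. With the deposited scaling and all 8 libraries, Tmem8c was the one gene of the 10 that changed by 2-fold or more. Cdh15 also passed 2-fold with quantile normalisation (log2 fold change -1.04), with cyclic loess (-1.05) and without Atad2 replicate 4 (-1.01).

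**Figure D1:**
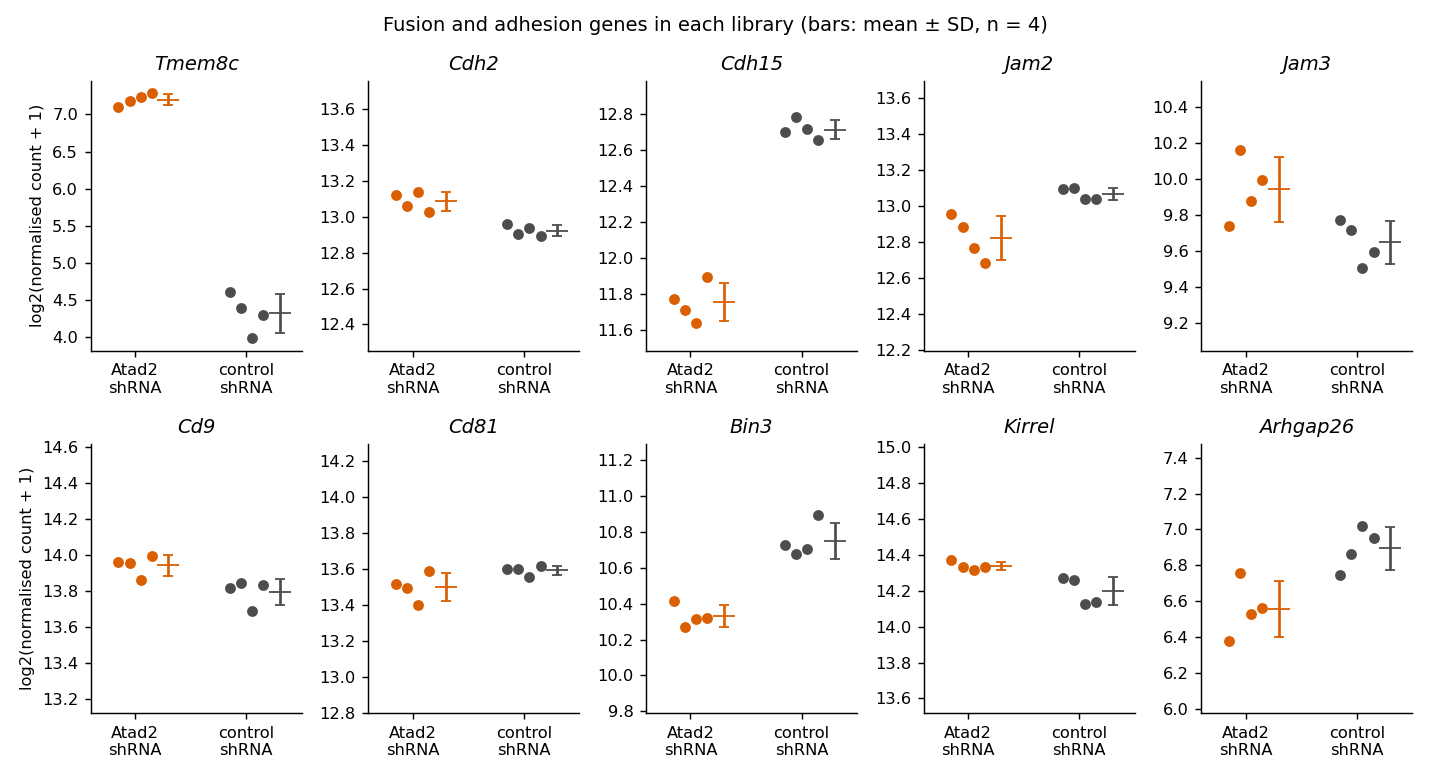
Level of each of the 10 genes in each library as log2(normalised count + 1), with 4 Atad2 shRNA libraries (orange) left of 4 control shRNA libraries (grey) and the mean ± SD beside them. All panels but Tmem8c span the same height of the scale. Tmem8c lies between 7.10 and 7.29 in the Atad2 libraries, above controls between 3.99 and 4.62, while Cdh15 lies between 11.64 and 11.89, below controls between 12.66 and 12.78.

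Tmem8c showed by far the largest difference of the 10. Its levels were 7.10, 7.18, 7.23 and 7.29 in the Atad2 libraries and 4.62, 4.40, 3.99 and 4.30 in the control libraries. Every Atad2 library lay above every control library by more than the spread within either group. The log2 fold change was 2.88 ± 0.25, a 7.34-fold difference (limma adjusted p = 2.88e-09), and 99% of all genes tested had a smaller absolute fold change. In reads, Tmem8c had 149, 151, 116 and 134 in the Atad2 libraries and 25, 20, 16 and 22 in the control libraries, so the gene remained weak in both groups. By the mean over all 8 libraries, 82.7% of tested genes lay above it. The gene (chromosome 2, 27061636 to 27072161, GRCm38, minus strand, protein-coding) shares no exon bases with another annotated gene. The call held under every alternative run, with log2 fold changes from 2.51 to 3.35.

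The partner of myomaker, myomerger, is listed in the table under its older symbol Gm7325 and fell below the filter over all libraries. Gm7325 had 14, 19, 17 and 32 reads in the Atad2 libraries and 0, 0, 6 and 2 in the control libraries, and the groups did not overlap. For the 2 control libraries without a read, 3 reads of the library total mark the limit a count of 0 allows, 0.0454 and 0.0489 RPM. Without the filter its log2 fold change was 3.42 ± 0.67 (limma adjusted p = 0.000488), a value that depends on the offset of 1. The relatives of myomaker went the other way. Tmem8 stood at 7.95 ± 0.17 in the Atad2 libraries and 9.04 ± 0.10 in the controls (SD, n = 4 each), a log2 fold change of -1.10 ± 0.11 (limma adjusted p = 3.34e-08). Tmem8b stood at 7.39 ± 0.08 and 7.94 ± 0.13, a change of -0.55 ± 0.13 whose call was lost with quantile normalisation (limma adjusted p = 0.18) and cyclic loess (0.107).

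Genes of the differentiated myotube were measured in the same libraries. Of 14 in the list, 11 were tested, of which 8 rose, 0 fell and 3 did not pass. Of the 8, Myh3 and Mybph passed the filter through the Atad2 libraries alone. Over the other 9 genes tested, 6 rose, 0 fell and 3 did not pass, with a median log2 fold change of 1.62, where 30.8% of all genes were called higher. Their part in the Tmem8c result was not tested. Ttn, which encodes titin, rose by 4.00 ± 0.07, Mylpf, a fast-muscle myosin light chain gene, by 2.83 ± 0.25, and Myog, the differentiation factor myogenin, by 2.15 ± 0.26 (limma adjusted p at most 3.34e-07). In reads Myog stood at 73 to 158 per Atad2 library and 23 to 39 per control library, and Mylpf at 158 to 300 and 20 to 44. Acta1, the skeletal actin gene, had a log2 fold change of -0.09 ± 0.12 and did not pass.

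Cdh15 encodes M-cadherin, a cadherin of satellite cells and myoblasts that links to the cytoskeleton through catenins. Its levels were 11.77, 11.71, 11.64 and 11.89 in the Atad2 libraries and 12.70, 12.78, 12.71 and 12.66 in the control libraries. The lowest control library stood well above the highest Atad2 library. The log2 fold change was -0.96 ± 0.05 (limma adjusted p = 2.73e-13), which made the gene 1.94-fold lower, and 87% of tested genes had a smaller absolute change. Reads were 2476 to 3828 per Atad2 library and 7001 to 7603 per control library, and the fold change stayed between -1.05 and -0.92 under all alternatives. Cdh15 lies on chromosome 8 (122848374 to 122867397, plus strand).

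Cdh2 encodes N-cadherin, a more widely used cadherin that myoblasts also carry. Its levels were 13.12, 13.06, 13.14 and 13.02 in the Atad2 libraries and 12.96, 12.91, 12.93 and 12.89 in the control libraries. The groups did not overlap, but their closest libraries differed by little. Its log2 fold change of 0.16 ± 0.03 (limma adjusted p = 0.000333) was near the median of 0.11 over the 1717 tested genes with a mean level above 13, of which 57.8% were called higher. The call was lost with quantile normalisation (0.07 ± 0.03, limma adjusted p = 0.0854) and cyclic loess (0.06 ± 0.03, adjusted p = 0.111). Cdh2 lies on chromosome 18 (16588877 to 16809246, minus strand).

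The balance between the 2 cadherins was compared within each library, where a shift common to the library cancels. The Cdh2 level minus the Cdh15 level was 1.35, 1.35, 1.501 and 1.13 in the Atad2 libraries and 0.26, 0.12, 0.22 and 0.24 in the control libraries. All 4 Atad2 libraries thus stood apart from the controls, and the difference of 1.12 ± 0.08 had an exact two-sided permutation p = 0.0286, the smallest that 4 against 4 libraries can give (adjusted over 3 pairs 0.0286). Each of the 3 balances reuses the levels of its 2 genes. No share over other gene pairs was computed, and 53.5% of all single genes tested did not overlap. Per kb of exon, Cdh15 made up 49.6 ± 2.62% of the sum of the 2 cadherins in the Atad2 libraries and 68.2 ± 0.91% in the controls (SD, n = 4 each).

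Among the wider list of 17 cadherins, catenins and linkers, 11 were tested, and of the 9 besides Cdh2 and Cdh15, 3 rose and 6 fell, where 30.8% of all genes were called higher and 29.6% lower. Cdh1 passed the filter through the control libraries alone, and without it 3 rose and 5 fell. Cdh11, a cadherin of mesenchymal cells, rose by 0.74 ± 0.04, Ctnnb1, which encodes beta-catenin, by 0.52 ± 0.03, and Cdh13, which encodes the lipid-anchored T-cadherin, by 0.43 ± 0.04. Plekha7, an adherens junction linker gene, changed by -1.39 ± 0.22, Vcl, which encodes the actin linker vinculin, by -0.58 ± 0.03 and Jup, which encodes plakoglobin, by -0.34 ± 0.04 (limma adjusted p of these 6 at most 1.41e-05). Cdh1, the E-cadherin gene and an epithelial marker, had 15, 3, 2 and 7 reads in the Atad2 libraries and 46, 68, 86 and 70 in the controls (-3.25 ± 0.47, limma adjusted p = 4.56e-06), and is named after its values were seen.

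Jam2 and Jam3 encode JAM-B and JAM-C, immunoglobulin adhesion proteins that bind each other across cells and are needed for myoblast fusion in zebrafish. The Jam2 levels were 12.96, 12.89, 12.77 and 12.69 in the Atad2 libraries and 13.10, 13.10, 13.04 and 13.04 in the control libraries. Each Atad2 library lay below each control library, and Atad2 libraries spread more widely. Jam2 changed by -0.25 ± 0.05 (limma adjusted p = 9e-05), with alternatives giving -0.35 to -0.20, while the 4453 tested genes of its level (mean 11 to 13) had a median of 0.08. Jam2 lies on chromosome 16 (84774123 to 84826380, plus strand).

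Jam3, in contrast, stood at 9.74, 10.16, 9.88 and 9.99 in the Atad2 libraries and at 9.77, 9.71, 9.51 and 9.60 in the control libraries. The groups overlapped, since Atad2 replicate 1 lay below control replicate 1. The log2 fold change was 0.30 ± 0.09 (limma adjusted p = 0.00549), and the call held under all alternatives, with adjusted p-values up to 0.0391. For Jam3 (chromosome 9, 27097384 to 27155421, minus strand), 36.2% of the exon bases are also covered by an antisense gene, Gm48796. That symbol is absent from the deposited values, so its level was not analysed here. Because the strand setting of the counting is not given, reads of the 2 genes cannot be told apart.

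Jam2 minus Jam3 was 3.22, 2.72, 2.90 and 2.69 on the log2 scale in the Atad2 libraries and 3.33, 3.39, 3.53 and 3.45 in the control libraries. The groups did not overlap, with Atad2 replicate 1 close to the controls. This balance differed by -0.54 ± 0.13 (exact two-sided permutation p = 0.0286, adjusted over 3 pairs 0.0286), and p was 0.0571 when any 1 control library (replicate 1, 2, 3 or 4) was left out. Per kb of exon, Jam3 made up 20.47 ± 2.63% of the pair in the Atad2 libraries and 14.96 ± 0.78% in the controls (SD, n = 4 each).

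**Figure D2:**
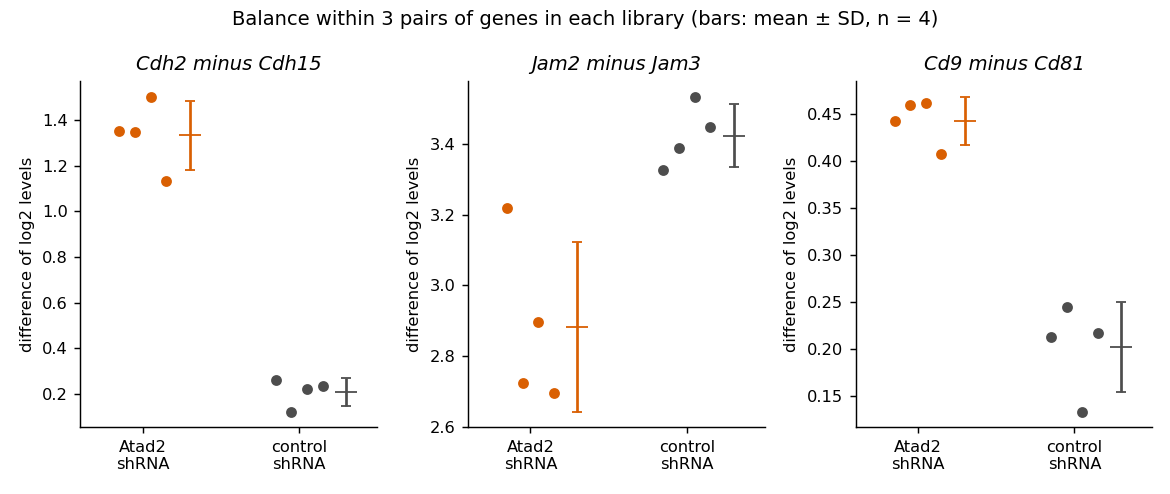
Difference between the log2 levels of 2 genes in each library for Cdh2 minus Cdh15, Jam2 minus Jam3 and Cd9 minus Cd81, with Atad2 shRNA libraries (orange) left of control shRNA libraries (grey) and the mean ± SD beside them; each panel has its own scale. The groups do not overlap in any of the 3 panels, and the gap is widest for the cadherins, 1.13 to 1.501 in the Atad2 libraries and 0.12 to 0.26 in the controls. Among all single genes tested 53.5% did not overlap, and no share was computed for other gene pairs.

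In the list of junction proteins with the JAMs, 12 other genes were tested, of which 4 rose, 5 fell and 3 did not pass, where 30.8% of all genes were called higher and 29.6% lower. Nectin1, a nectin that starts cell contacts, rose by 1.24 ± 0.05, and Nectin2, of the same family, by 0.29 ± 0.06. Cxadr, which encodes an adhesion receptor of the same immunoglobulin group, changed by -1.77 ± 0.18, F11r, which encodes JAM-A, by -0.75 ± 0.14, and Tjp1, the scaffold that JAMs bind, by -0.34 ± 0.03 (limma adjusted p of these 5 at most 0.000249). Of the 3 JAM genes, 1 was therefore called higher and 2 lower.

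Cd9 and Cd81 encode tetraspanins that mouse muscle cells use to limit fusion. The Cd9 levels were 13.96, 13.96, 13.86 and 13.997 in the Atad2 libraries and 13.82, 13.85, 13.69 and 13.83 in the control libraries. The lowest Atad2 library stood just above the highest control. Cd9 changed by 0.15 ± 0.04 (limma adjusted p = 0.00187), close to the median of 0.11 for genes above a mean of 13, and was not called with quantile normalisation (0.04 ± 0.04, limma adjusted p = 0.339) or cyclic loess (0.04 ± 0.04, adjusted p = 0.423). Cd9 lies on chromosome 6 (125460266 to 125494760, minus strand). An opposite-strand transcript, Gm26728, covers 10.7% of its exon bases and had 0 reads in the Atad2 libraries and at most 8 in a control library.

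Cd81 stood at 13.52, 13.50, 13.40 and 13.59 in the Atad2 libraries and at 13.60, 13.60, 13.56 and 13.62 in the control libraries. Atad2 replicate 4 overlapped the controls. The change of -0.09 ± 0.04 passed narrowly (limma adjusted p = 0.0295). Leaving out Atad2 replicate 2 (limma adjusted p = 0.0611), Atad2 replicate 3 (0.143) or control replicate 1 (0.0627), 2 (0.0575) or 4 (0.0699) ended the call, as did testing with no filter (0.0521) or without the variance trend (0.103). With quantile normalisation and cyclic loess it was -0.20 ± 0.04 in both (limma adjusted p = 0.000103 and 6.79e-05). Cd81 lies on chromosome 7 (143052750 to 143067930, plus strand), and R74862 on the other strand, which shares 3.61% of its exon bases, stood at 6.71 ± 0.20 in the Atad2 libraries and 6.67 ± 0.09 in the controls (SD, n = 4 each).

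The balance of the tetraspanin pair, Cd9 minus Cd81, was 0.44, 0.46, 0.46 and 0.41 in the Atad2 libraries and 0.21, 0.24, 0.13 and 0.22 in the controls. The groups were well apart, by 0.24 ± 0.03 (exact two-sided permutation p = 0.0286, adjusted over 3 pairs 0.0286), and the difference lay between 0.22 and 0.26 under every alternative run. Per kb of exon Cd9 made up 65.7 ± 0.40% of the pair in the Atad2 libraries and 61.8 ± 0.79% in the controls (SD, n = 4 each).

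The list of tetraspanins and their EWI immunoglobulin partners held 31 genes, of which 26 were tested. Besides Cd9 and Cd81, 11 rose, 8 fell and 5 did not pass, beside 30.8% higher and 29.6% lower among all genes. Of these, Tspan32 passed the filter through the Atad2 libraries alone and Tspan33 through the controls alone, and without them 10 rose and 7 fell. Tspan11 rose by 1.77 ± 0.25, Igsf3, an EWI relative, by 0.84 ± 0.03 and Tspan9 by 0.68 ± 0.04. Tspan2 changed by -1.92 ± 0.10, Tspan13 by -1.48 ± 0.35 and Tspan17 by -0.50 ± 0.06 (limma adjusted p of these 6 at most 0.00101). The direct partner genes of CD9 and CD81 were Igsf8 (EWI-2), which rose by 0.51 ± 0.04, and Ptgfrn (EWI-F), at 0.05 ± 0.03 without passing. Both were chosen after their values were seen.

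Kirrel encodes a mouse relative of the fly fusion receptors Dumbfounded and Roughest, an immunoglobulin protein of cell recognition. Its levels were 14.37, 14.33, 14.31 and 14.33 in the Atad2 libraries and 14.27, 14.26, 14.12 and 14.14 in the control libraries. The groups did not overlap, and control libraries spread more. The change was 0.14 ± 0.04 (limma adjusted p = 0.00192), again near the median of genes of its level, and ended with quantile normalisation (0.03 ± 0.03, limma adjusted p = 0.383) and cyclic loess (0.02 ± 0.03, adjusted p = 0.567). Kirrel lies on chromosome 3 (87078593 to 87174777, minus strand).

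Of its family, Kirrel3 had a log2 fold change of 0.17 ± 0.09 without passing, and Kirrel2 and Nphs1 (nephrin) had 0 reads in all libraries, which allows up to 0.0411 to 0.0596 RPM depending on the library. In the list of immunoglobulin and integrin receptors of fusion, 10 other genes were tested, with 6 higher, 3 lower and 1 not passing, where 30.8% of all genes were called higher and 29.6% lower, and 46.9% and 57.8% were higher at means of 11 to 13 and above 13. Igdcc4, a receptor of the neogenin group, rose by 1.24 ± 0.12, Neo1 (neogenin) by 0.78 ± 0.03 and Boc, a co-receptor at myoblast contacts, by 0.54 ± 0.08. Cdon, the other co-receptor of that complex, changed by -0.42 ± 0.04, Itga3 (integrin alpha-3) by -0.28 ± 0.04 and Vcam1 by -0.19 ± 0.06 (limma adjusted p of these 6 at most 0.00462).

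Bin3 encodes a BAR-domain protein that supports Rac and Cdc42 activity in mouse myoblasts. Its levels were 10.42, 10.27, 10.31 and 10.32 in the Atad2 libraries and 10.72, 10.68, 10.70 and 10.89 in the control libraries. The groups were clearly separate. The log2 fold change was -0.42 ± 0.06, which made the gene 1.34-fold lower (limma adjusted p = 3.41e-06), with values from -0.45 to -0.37 over all alternatives and a median of -0.02 for the 3427 genes of its level (mean 9 to 11). Bin3 (chromosome 14, 70100089 to 70137964, plus strand) shares 1.97% of its exon bases with Ccar2 on the other strand, which was called higher (0.25 ± 0.04).

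Arhgap26 encodes GRAF1, which switches off RhoA and promotes fusion of mouse myoblasts. It was weak, at 6.38, 6.76, 6.53 and 6.57 in the Atad2 libraries and 6.75, 6.87, 7.02 and 6.95 in the control libraries, or 71 to 112 and 113 to 145 reads. The groups overlapped at Atad2 replicate 2 and control replicate 1. Its log2 fold change of -0.34 ± 0.18 did not pass (limma adjusted p = 0.112) and equalled the median of -0.34 over the 3202 genes with a mean of 5 to 9. The sign turned with quantile normalisation (0.10 ± 0.18, limma adjusted p = 0.659) and cyclic loess (0.02 ± 0.18, adjusted p = 0.934), and the gene was called lower without the variance trend (adjusted p = 0.0162). On chromosome 18 (38601617 to 39376285, plus strand), 2.27% of its exon bases lie within the antisense gene Gm15337, which had 11 to 54 reads per Atad2 library and 174 to 196 per control library. A second annotated entry of the same name on the same strand shares 3.19% of them, and the antisense gene Gm15336 shares 1.09%.

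Single genes that act on the cytoskeleton at such contacts moved in both directions. Trio, the exchange factor through which M-cadherin activates Rac in C2C12 cells, rose by 0.48 ± 0.04, and Ptk2, which encodes focal adhesion kinase, by 0.28 ± 0.03. Rnd3, which encodes a RhoA antagonist, changed by -0.47 ± 0.04, Arhgap10, a GRAF relative, by -0.44 ± 0.04 and Rhoa itself by -0.16 ± 0.03 (limma adjusted p of these 5 at most 7.77e-05). Rac1 and Cdc42, named after their values were seen, had log2 fold changes of -0.03 ± 0.03 and -0.04 ± 0.03 and did not pass.

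**Figure D3:**
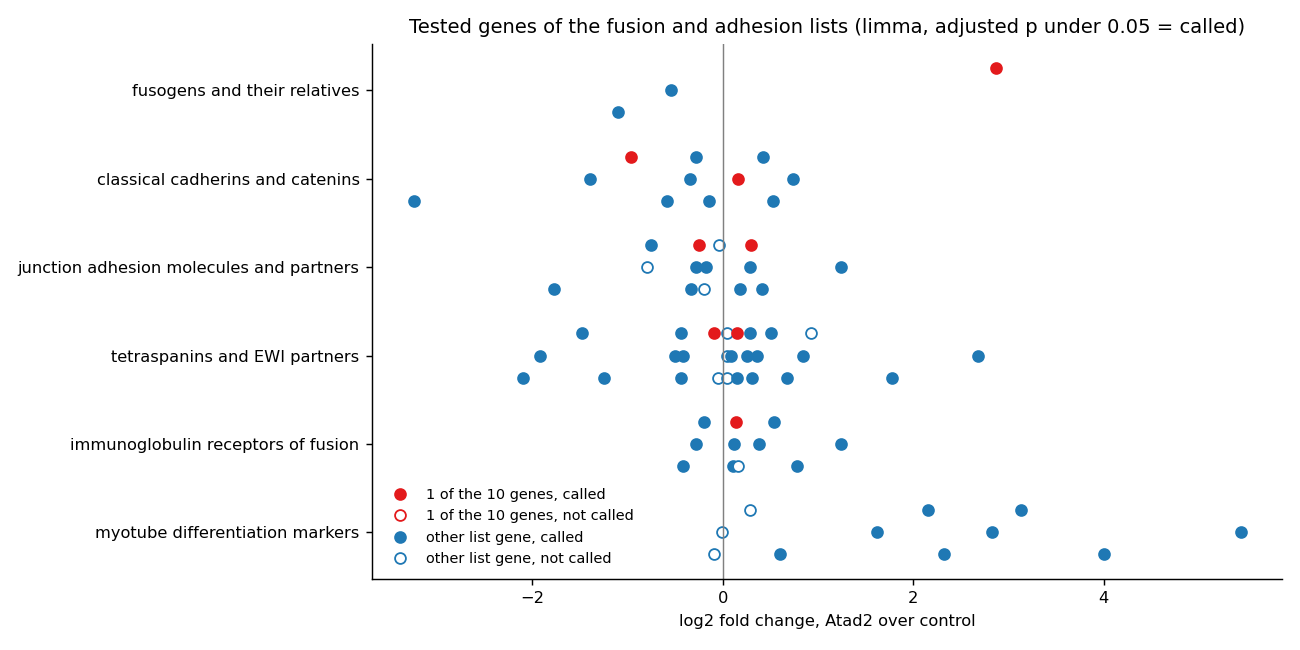
Log2 fold change (Atad2 over control shRNA) of every tested gene in 6 lists, 1 point per gene. Points are filled where limma's adjusted p was under 0.05 and hollow where it was not. Those of the 10 genes that belong to these lists are red, and other list genes are blue. Bin3 and Arhgap26 belong to none of the 6 lists and are not shown. The lists of adhesion and fusion genes spread to both sides of 0, and 8 of 11 myotube markers are called higher and 0 lower, or 6 of 9 without Myh3 and Mybph, which passed the filter through the Atad2 libraries alone.

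Levels were compared between genes as normalised counts per kb of exon, using the union of GENCODE M21 exons, which may differ from the annotation the authors counted on. In the control libraries the order was Cd9, Cd81, Kirrel, Cdh15, Jam2, Cdh2, Bin3, Jam3, Tmem8c and Arhgap26. Neighbours in that order did not overlap in range except Tmem8c, at 12.8 ± 2.37, and Arhgap26, at 12.2 ± 1.01 normalised counts per kb (SD, n = 4). In the Atad2 libraries Cd9 led at 7716 ± 302 normalised counts per kb and Arhgap26 was last at 9.62 ± 1.06. The ranges of Jam2 (1203 ± 99.9), Cdh2 (1078 ± 39.8) and Cdh15 (1063 ± 80.1) overlapped there. Their order within each library was not compared.

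**Figure D4:**
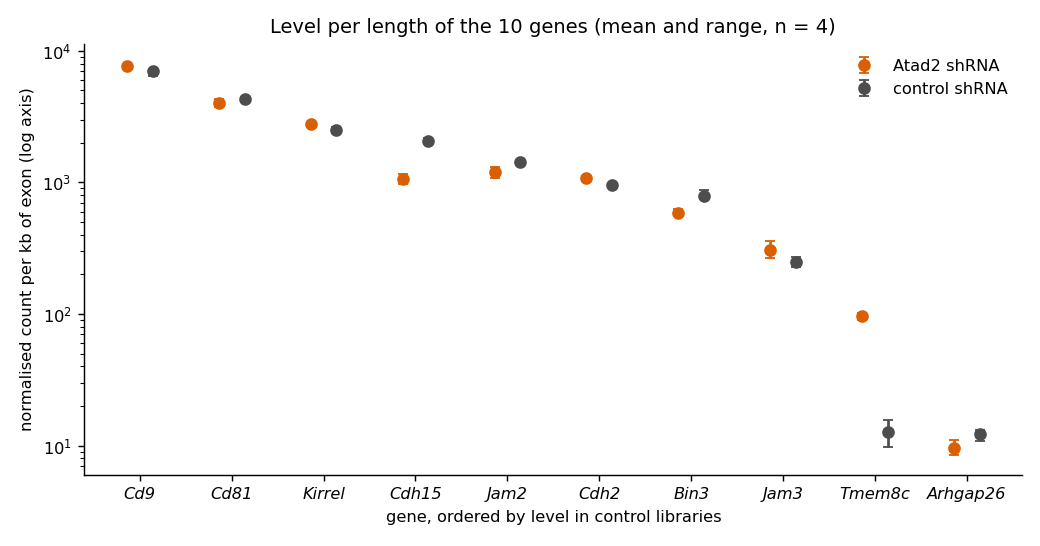
Normalised count per kb of exon on a log axis for the 10 genes, ordered by their level in the control libraries, with the mean (point) and range (bar) of 4 Atad2 shRNA libraries (orange, left) and 4 control shRNA libraries (grey, right). Tmem8c stands at 96.7 per kb in the Atad2 libraries and 12.8 in the controls, and Cdh15 at 1063 and 2064.

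The fold changes of the 10 genes were then set beside those of genes of like level, since weak genes were more often lower and strong genes more often higher in the Atad2 libraries. Among genes with a mean of 5 to 9, the class of Tmem8c and Arhgap26, 12.4% were called higher and 44% lower, and among the weakest (mean 3 to 5) 5.51% and 27.4%. Of genes with a mean above 13, the class of Kirrel, Cd9, Cd81 and Cdh2, 57.8% were called higher and 20.2% lower. In the class of Cdh15 and Jam2 (mean 11 to 13), 46.9% were called higher and 22.3% lower, and in that of Bin3 and Jam3 (mean 9 to 11) 27.5% and 31.5%. With quantile normalisation and cyclic loess the fold changes of the 4 strongest genes were lower and that of Tmem8c higher than with the deposited scaling, while Bin3 stood at -0.42 with quantile normalisation and -0.43 with cyclic loess.

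**Figure D5:**
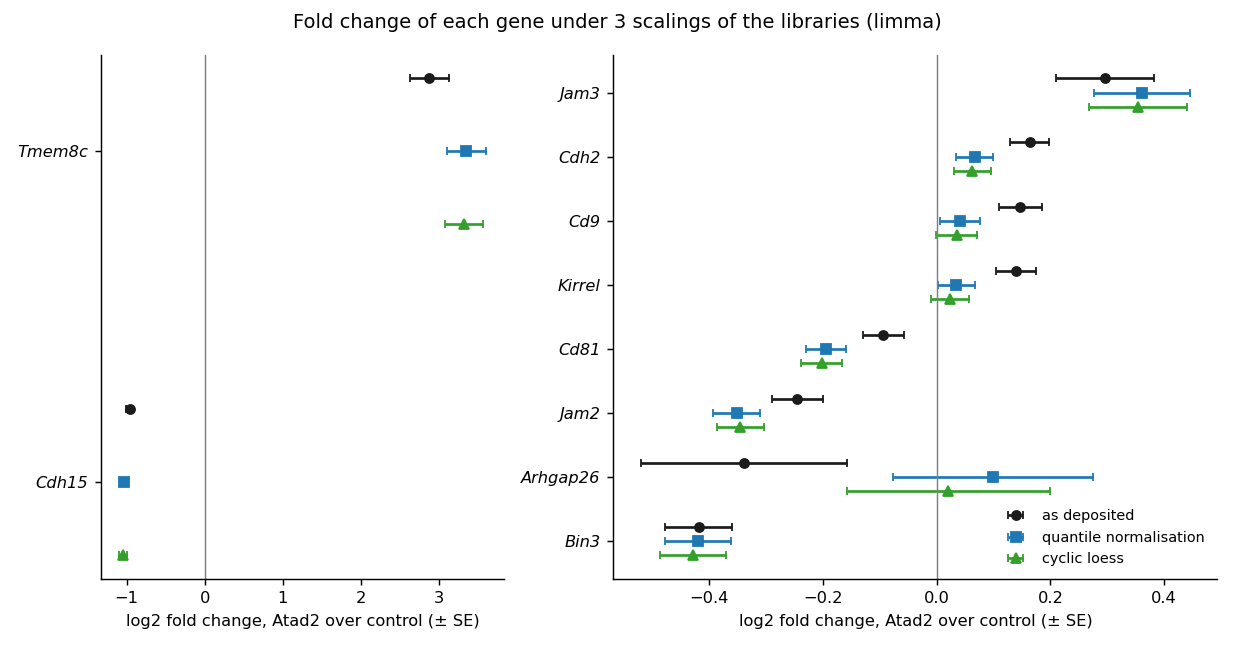
Log2 fold change (Atad2 over control shRNA) ± SE of each gene from limma with the deposited scaling (black circles), quantile normalisation (blue squares) and cyclic loess (green triangles); the 2 panels differ in scale. Cdh2, Cd9 and Kirrel lie between 0.14 and 0.16 with the deposited scaling and between 0.02 and 0.07 with the others, and Arhgap26 crosses 0.

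The genes whose profile over the 8 libraries was nearest to that of Tmem8c, by Euclidean distance between centred log2 values among genes with a mean of at least 5, were Cacna1a (distance 0.51), Aldh3a1 (0.52), Nptx1 (0.67), Mylpf (0.70) and Serpinb2 (0.73). Their log2 fold changes were 2.68 to 2.89. Nearest to Cdh15 were Lama4 (0.13), Ugcg (0.16), Tspyl1 (0.17), Abca7 (0.18) and Nacc2 (0.18), with fold changes of -0.97 to -0.88. Of these 10, Mylpf alone is also in a list used here. The likeness is dominated by the difference between the 2 groups.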

How the data were processed

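Total RNA of 8 C2C12 libraries was sequenced. Per the submitters' processing notes, the tools were bcl2fastq 2.20, HTSeq 0.13.5, SAMtools 1.1 and an unnamed version of DESeq2, and the build mm10. Aligner, annotation and strand setting: not given in the sources used here. The authors deposited log2 values of size-factor-scaled gene counts with 1 added, a form inferred from the numbers themselves: 100% of low values, converted back, lay on whole multiples of 1 step per library within 0.1 reads. Reads were recovered with that step and are approximate for high values.

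The test, for genes with a mean log2 value above 3, was limma's (version 3.58.1, run in R 4.3.3; lmFit, eBayes with trend, two-sided, Benjamini-Hochberg over all 14703 genes, threshold 0.05). Balances within 3 gene pairs were compared by exact permutation over 35 splits. Tables and plots used Python 3.11.15, NumPy 2.4.6, pandas 2.3.3, SciPy 1.17.1 and matplotlib 3.10.9. RefSeq GRCm38.p6, the assembly mm10 names, gave coordinates for all 10 genes and the upstream sequence, of which 3 promoters are shown. GENCODE M21 gave exon lengths and exon overlaps. The genes named are the 10, Atad2, up to 3 called genes per list and direction with a mean of at least 5, ranked by fold change, and the 5 nearest profiles of Tmem8c and Cdh15, passing over predicted genes; others (among them Acta1, Kirrel2, Kirrel3, Nphs1 and genes that share exon bases) were added after their values were seen. The 10 genes and all lists were chosen with earlier results of these data known.

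On data simulated for this comparison (15101 genes), limma found 70% of 50 genes with a log2 change of 0.25, 98% at 0.5 and 100% at 1 and 2, and 4.66% of 193 calls were unchanged genes. Changed genes were drawn only from those averaging above 50 reads, with 1 dispersion for all genes. They were a small part of all genes, whereas 60.4% were called in the data. The rates therefore do not cover weak genes such as Tmem8c in the controls. Depth limits weak genes: 3 reads of a library correspond to 0.0411 to 0.0596 RPM, which covers counting error only. The settings varied were the filter (none, or a mean above 5), the offset (8), median centring, quantile normalization, cyclic loess, eBayes without trend, limma-voom on recovered reads, the replicate block and leaving out each library. Some genes of the lists and 1 list are not reported here.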

Additional observations from a re-analysis of the deposited data

How the results depend on the processing

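Over 17 alternatives, Tmem8c, Cdh15, Jam2, Jam3 and Bin3 kept their direction and stayed called. With quantile normalization and with cyclic loess, 2 of the 10 genes were called higher in place of 5, and Arhgap26, not called in the first place, changed sign (0.0993 and 0.0207). The cause was not tested. The count of lower genes among the 10 stayed between 3 and 4. Over all genes, 4107 to 4568 were called higher and 3861 to 4717 lower. Without one library, 5 of the 10 were higher in each case and 4244 to 4568 of all genes higher.

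Same-numbered libraries did not deviate together (correlations of deviations -0.02 to 0.03 over the 4 pairs, and not every library correlated best with its own number). This does not show that they were handled apart, which the labels do not give. With the replicate block, 5 of the 10 were higher and 4 lower, and 4562 and 4379 of all genes. For the pairing by replicate number, the pair differences were 1.12 (Cdh2 minus Cdh15), -0.54 (Jam2 minus Jam3) and 0.24 (Cd9 minus Cd81), each with an exact sign-flip p = 0.125, the smallest that 4 pairs can give. Leaving out a library, Jam2 minus Jam3 lay between -0.65 and -0.48, Cdh2 minus Cdh15 between 1.07 and 1.19, and Cd9 minus Cd81 between 0.22 and 0.26.

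In the lists, the fusogen list had 2 higher genes without the filter or without control replicate 1 or 2, in place of 1, since Gm7325 was then tested, and 1 lower with quantile normalization or cyclic loess in place of 2. A mean above 5 left 5 myotube markers higher in place of 8. Read depth limits Tmem8c in controls, Arhgap26 and Gm7325.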

Other observations

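Some list genes below the filter and outside the naming rule did not overlap between the groups, and they were chosen after their values were seen. Itga4, the integrin subunit that binds VCAM-1, had 27, 23, 32 and 9 reads in the Atad2 libraries and 5, 0, 1 and 1 in the control libraries. It lay below the filter and was not tested, and its groups did not overlap. Among all tested genes 53.5% did not overlap, but no such share was computed over genes below the filter. Gm7325, given above, went the same way as Itga4. Tspan8 and Ctnnd2, also untested, went the other way without overlap. Tspan8 had 0 to 2 reads per Atad2 library and 12 to 49 per control library, and Ctnnd2 had 0 and 3 to 20.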
